A study of Mus musculus with 10 samples.

Results

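Replication licensing loads the helicase that will unwind DNA, and origin firing switches it on. The 10 genes described here encode that machinery: the minichromosome maintenance helicase subunits Mcm2, Mcm3, Mcm4, Mcm5, Mcm6 and Mcm7, the helicase loaders Cdc6 and Cdt1, and the helicase activators Cdc45 and Gins2. They were chosen by gene symbol from 22180 measured mouse genes, and each of the 10 had 1 probe set of its own. Of the further probe sets, 2 were annotated to Mcm7 together with a microRNA gene and were not used.

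RNA of sorted mouse intestinal cells, from mice 3 to 6 months old, was amplified and hybridised to 10 Affymetrix arrays. Of these, 6 held cells with high Lgr5 and GFP (Lgr5-high) from C57BL/6J mice of genotype Lgr5-EGFP-IRES-creERT2, in which a fluorescent protein and an inducible Cre are expressed from the Lgr5 locus. The other 4 held crypt cells described as Flattop-expressing (Flattop), from FltpT2AiCre mice crossed with Gt(ROSA)26mTmG, a membrane colour reporter, on a mixed C57BL/6J, CD1 and 129/SvJ background. A Cre reporter stays on in the descendants of a cell that once expressed the driver, and the gates used to sort the cells are unknown here. Group, genotype and strain coincide and cannot be told apart. The labels do not tie replicates to different animals, so a p-value here speaks of the spread between samples, which may be technical. The number in a sample title lay between 1 and 8 for 2 Flattop and 3 Lgr5-high arrays and between 38 and 46 for the other 2 and 3. The labels do not say what these numbers mark, so both ranges are given.

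In G1 phase, the origin recognition complex, Cdc6 and Cdt1 place inactive Mcm2 to Mcm7 rings on DNA. At the start of S phase, kinases bring in Cdc45 and the GINS complex, of which Gins2 is a subunit, and the joint Cdc45-MCM-GINS helicase begins to unwind. Many of these genes are transcribed under E2F factors in cycling cells. In the intestinal crypt, Lgr5 stem cells and their transit-amplifying daughters cycle, whereas mature Paneth, enteroendocrine and villus cells do not.

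The promoters show a feature that the choice by symbol did not use. RefSeq windows of 250 bases before to 50 bases after an annotated start, in build GRCm38.p6, were found for 8 of the 10 genes, in 9 windows, since Mcm7 had 2. Mcm4 and Gins2 had none in the table used. Each window was searched on both strands for 4 words of 8 letters that are forms of the E2F element, TTTGGCGC, TTTCGCGC, TTTCCCGC and TTTGCCGC. At least 1 word was present for 6 of the 8 genes (Mcm3, Mcm5, Mcm6, Mcm7, Cdc6 and Cdt1), against 2.60% of the 27025 genes with a window. The 5 windows below are shown because each holds TTTGGCGC or TTTCGCGC, and all matches are in capitals (reverse-strand matches appear as GCGCCAAA, GCGCGAAA or GCGGGAAA).
Mcm3 (chr1:20820263-20820562, minus strand): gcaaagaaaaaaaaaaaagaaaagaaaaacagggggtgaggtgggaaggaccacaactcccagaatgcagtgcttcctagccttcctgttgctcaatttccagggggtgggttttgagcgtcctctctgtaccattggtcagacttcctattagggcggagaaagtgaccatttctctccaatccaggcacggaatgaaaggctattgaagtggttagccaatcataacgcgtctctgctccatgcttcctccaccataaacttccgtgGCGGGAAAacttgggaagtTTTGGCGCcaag
Mcm5 (chr8:75109259-75109558, plus strand): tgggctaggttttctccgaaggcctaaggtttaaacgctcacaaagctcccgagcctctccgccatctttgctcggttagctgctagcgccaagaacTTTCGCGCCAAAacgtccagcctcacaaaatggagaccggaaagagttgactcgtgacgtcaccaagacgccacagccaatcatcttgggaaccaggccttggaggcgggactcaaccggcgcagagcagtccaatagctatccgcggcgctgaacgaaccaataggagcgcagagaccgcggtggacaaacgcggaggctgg
Mcm6 (chr1:128359656-128359955, minus strand): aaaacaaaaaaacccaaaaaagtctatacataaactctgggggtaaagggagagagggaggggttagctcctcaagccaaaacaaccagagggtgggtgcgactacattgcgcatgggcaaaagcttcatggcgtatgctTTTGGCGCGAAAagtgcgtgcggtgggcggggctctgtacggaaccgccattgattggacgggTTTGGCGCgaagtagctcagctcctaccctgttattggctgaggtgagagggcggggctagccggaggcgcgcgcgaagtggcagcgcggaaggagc
Mcm7 (chr5:138171834-138172133, minus strand): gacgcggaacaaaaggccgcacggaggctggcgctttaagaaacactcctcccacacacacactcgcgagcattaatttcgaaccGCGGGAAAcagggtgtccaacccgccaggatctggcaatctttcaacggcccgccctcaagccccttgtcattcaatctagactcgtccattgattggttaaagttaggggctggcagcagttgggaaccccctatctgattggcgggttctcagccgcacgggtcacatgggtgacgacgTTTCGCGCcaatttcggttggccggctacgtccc
Cdt1 (chr8:122567765-122568064, plus strand): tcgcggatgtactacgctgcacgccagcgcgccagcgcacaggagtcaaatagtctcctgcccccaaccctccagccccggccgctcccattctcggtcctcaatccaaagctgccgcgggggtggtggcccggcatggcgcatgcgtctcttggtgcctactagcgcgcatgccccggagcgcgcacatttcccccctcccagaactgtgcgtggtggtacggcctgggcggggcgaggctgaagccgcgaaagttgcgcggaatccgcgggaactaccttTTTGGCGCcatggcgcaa
In Mcm5 and in the upstream site of Mcm6, matches on the 2 strands overlap by 4 letters to make 1 longer run. The matches begin at -153 and -149 from the start in Mcm5, at -110, -106 and -47 in Mcm6, at -165 and 17 in Mcm7, at 20 and 39 in Mcm3, and at 33 in Cdt1. A match of letters is a description of the sequence and not a measured binding site.

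All 10 genes had a lower mean log2 intensity in Flattop than in Lgr5-high arrays, and none passed the test across all genes. The differences ran from -0.01 for Mcm5 to -1.02 for Mcm4, with a median of -0.73, beside a median of -0.06 over all 22180 genes, of which 61.5% had a difference below 0. In limma with Benjamini-Hochberg adjustment over all genes, 0 of 10 passed an adjusted p of 0.05 (the adjusted p ran from 0.252 to 0.997), where 0.915% of all genes passed and 0.0135% passed as lower (3 genes, or 16 after a second quantile normalisation). At an unadjusted p under 0.05, 6 of the 10 were lower (Mcm3, Mcm4, Mcm6, Mcm7, Cdt1 and Gins2), beside 3.80% of all genes. The groups overlapped in all 10 genes, where 0.974% of all genes lay apart with Flattop lower. By mean over all arrays, the 10 genes lay at percentiles 63.2 to 96.2 of all genes. The median and shares over all genes were not matched for intensity. A bulk array cannot tell fewer cycling cells from less RNA per cell.

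**Figure D1:**
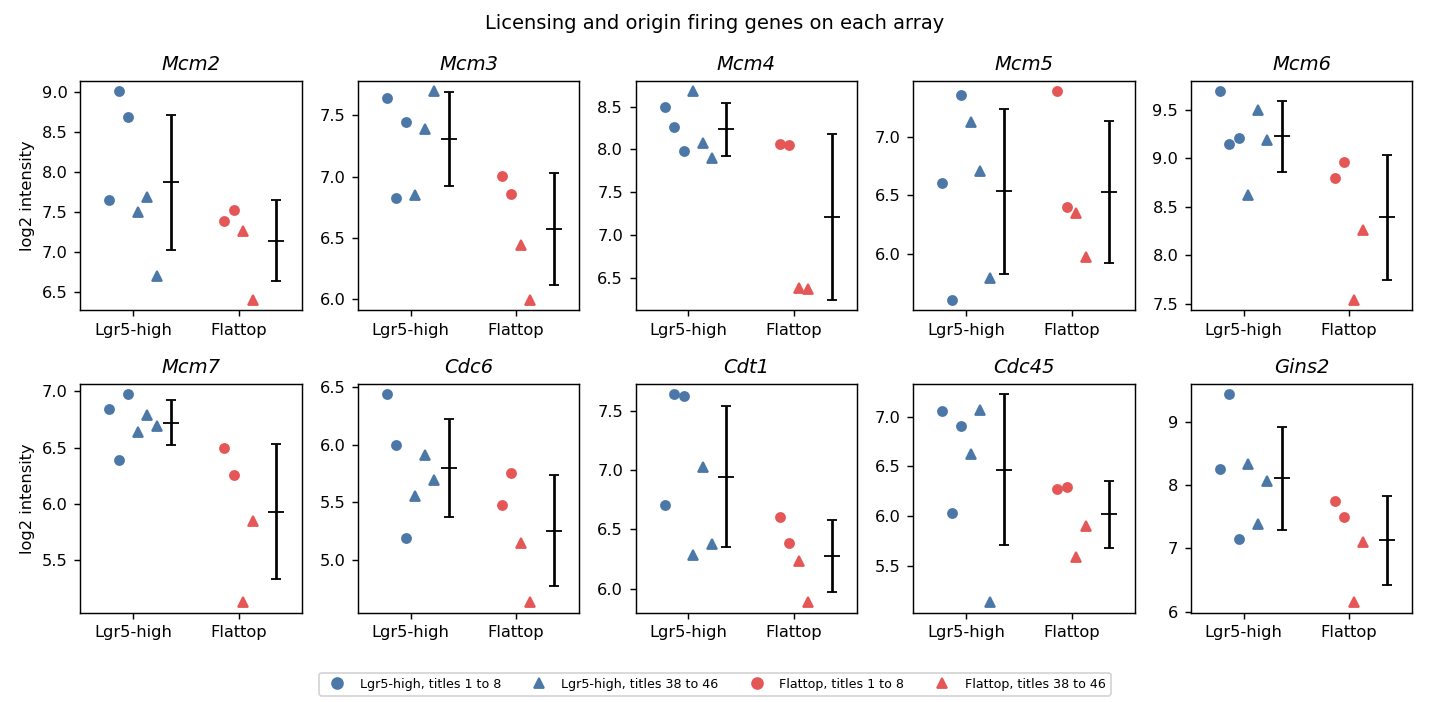
Log2 intensity of each of the 10 genes (vertical axes, 1 panel per gene with its own scale) on the 6 Lgr5-high and 4 Flattop arrays, with group mean and SD at the right of each group. Circles are titles 1 to 8 and triangles titles 38 to 46. The 2 Flattop triangles of Mcm4 sit at 6.38 and 6.36, and the other 8 arrays lie between 7.90 and 8.68.

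Of the helicase ring, Mcm4 differed most. Mcm4 encodes 1 of the 6 ring subunits, and its 4 Flattop arrays read 8.07, 8.05, 6.38 and 6.36, against a lowest value of 7.90, a median of 8.17 and a highest of 8.68 in the 6 Lgr5-high arrays. Flattop replicates 1 and 2 lay within the Lgr5-high range and replicates 3 and 4 lay more than 1 log2 unit under it. The difference was -1.02 (SE 0.37, 95% interval -1.84 to -0.20, adjusted p = 0.374), a linear ratio of 0.493.

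Mcm6, another ring subunit, read 8.80, 8.97, 7.54 and 8.26 in Flattop, against 8.62, 9.20 and 9.69 as the lowest, median and highest Lgr5-high values. Replicates 1 and 2 again lay inside the Lgr5-high range and replicates 3 and 4 beneath it. The difference of -0.84 (SE 0.29, 95% interval -1.47 to -0.20) had an adjusted p of 0.331. Mcm7 had the smallest p of the 10 genes. Its Flattop arrays read 6.50, 6.26, 5.12 and 5.85, and the Lgr5-high arrays lay between 6.39 and 6.98 with a median of 6.74. Here 3 of 4 Flattop arrays were under every Lgr5-high array, and the difference was -0.79 (SE 0.24, 95% interval -1.32 to -0.26, adjusted p = 0.252).

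Mcm3 read 7.01, 6.85, 6.44 and 5.99 in Flattop, against 6.83 to 7.70 in Lgr5-high arrays with a median of 7.42. The 2 lowest Flattop arrays lay under all Lgr5-high arrays, and the difference was -0.73 (SE 0.25, adjusted p = 0.324). Mcm2, whose protein is a substrate of the origin-firing kinase Cdc7, read 7.39, 7.52, 7.26 and 6.41 in Flattop. Its Lgr5-high arrays spread widely, from 6.70 through a median of 7.67 to 9.01, so the difference of -0.73 (SE 0.42, 95% interval -1.65 to 0.20) had an adjusted p of 0.620.

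Mcm5 stood apart from the other ring subunits. The Flattop mean was 6.53 ± 0.61 (SD, n = 4), that of the Lgr5-high arrays was 6.53 ± 0.71 (SD, n = 6), and the 95% interval of the difference ran from -0.86 to 0.84. Flattop replicate 1 gave the highest Mcm5 value of all arrays at 7.39, and the lowest, 5.60, came from Lgr5-high replicate 2. The sign of its difference turned to 0.01 when each array was centred on its median and to 0.37 within titles 1 to 8. This interval does not show that Mcm5 was equal in both groups, since it spans differences as large as those of Mcm2 and Mcm3.

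The 2 loaders had differences of -0.67 and -0.54, and neither passed. Cdt1, which brings the ring to the origin, read 6.60, 6.38, 6.24 and 5.88 in Flattop, against 6.29, 6.87 and 7.64 as the lowest, median and highest Lgr5-high values. All 4 Flattop arrays lay under the Lgr5-high median and 2 under its lowest array, and the difference was -0.67 (SE 0.30, 95% interval -1.32 to -0.01, adjusted p = 0.501). Cdc6, the ATPase that recruits Cdt1 and the ring, read 5.48, 5.75, 5.15 and 4.64 in Flattop and 5.19 to 6.44 in Lgr5-high arrays (median 5.81). Its difference of -0.54 (SE 0.26, 95% interval -1.13 to 0.04) had an adjusted p of 0.554.

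The activators differed from each other in spread. Gins2 read 7.75, 7.49, 6.15 and 7.11 in Flattop, against 7.16, 8.15 and 9.43 as the lowest, median and highest Lgr5-high values. Its difference of -0.98 (SE 0.44, 95% interval -1.95 to -0.01, adjusted p = 0.507) was the next largest after that of Mcm4. Cdc45, which completes the active helicase, read 6.28, 6.30, 5.59 and 5.91 in Flattop. Its lowest array of all was a Lgr5-high one, replicate 6 at 5.13, and the other 5 Lgr5-high arrays lay between 6.03 and 7.06. The Cdc45 difference was -0.45 (SE 0.37, adjusted p = 0.710), and it was -0.72 when Lgr5-high replicate 6 was left out.

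The Flattop arrays did not form a single level. Averaged over the 10 genes, Flattop replicates 1 and 2 read 7.13 and 6.997, within the Lgr5-high range of 6.92 to 7.54, while replicates 3 and 4 read 6.22 and 6.24. Replicate 3 was under every Lgr5-high array in 7 of the 10 genes and replicate 4 in 8, against 0 for replicate 1 and 1 for replicate 2. Over all genes these shares were 15.4% and 14.8% for replicates 3 and 4, and 22.6% and 25.4% for replicates 1 and 2. Replicates 1 and 2 have titles in the range 1 to 8, and replicates 3 and 4 in the range 38 to 46. Without Flattop replicate 3 the difference of Mcm6 was -0.55 and that of Mcm7 -0.52, and without Flattop replicate 4 that of Mcm2 was -0.48 and that of Cdc6 -0.34. That of Gins2 was -0.65 without Flattop replicate 3. Among Lgr5-high arrays, replicate 6 had the lowest mean of the 10 genes (6.92), and the other 5 lay between 7.22 and 7.54.

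Arrays with titles 1 to 8 gave a median difference of -0.37, with 9 of 10 differences below 0, and those with titles 38 to 46 gave -0.96, with 10 of 10 below 0. Over all 22180 genes the medians were -0.09 and -0.02, with 13483 and 11661 differences below 0. No member passed an adjusted p of 0.05 in either range, where 0.347% and 0.383% of all genes did. At an unadjusted p under 0.05, 0 members were lower within titles 1 to 8 and 6 within titles 38 to 46 (Mcm3, Mcm4, Mcm6, Mcm7, Cdc6 and Gins2), beside 2.97% and 3.73% of all genes. The gap was widest for Mcm4, whose difference was -0.19 in the first range and -1.85 in the second (adjusted p = 0.744 and 0.102).

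Whether the difference itself depended on the title range was tested by an interaction term. It passed for 0 of 10 members after adjustment, and for 0.00902% of all genes. The smallest interaction p was that of Mcm4 (-1.66, unadjusted p = 0.00129, adjusted p = 0.401), and that of Mcm7 was -0.86 (unadjusted p = 0.0412, adjusted p = 0.662). These were the 2 members with an unadjusted p under 0.05, beside 7.39% of all genes. Mcm2 and Cdt1 ran the other way, with a larger difference within titles 1 to 8 (-0.99 and -0.83) than within titles 38 to 46 (-0.46 and -0.50).

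**Figure D2:**
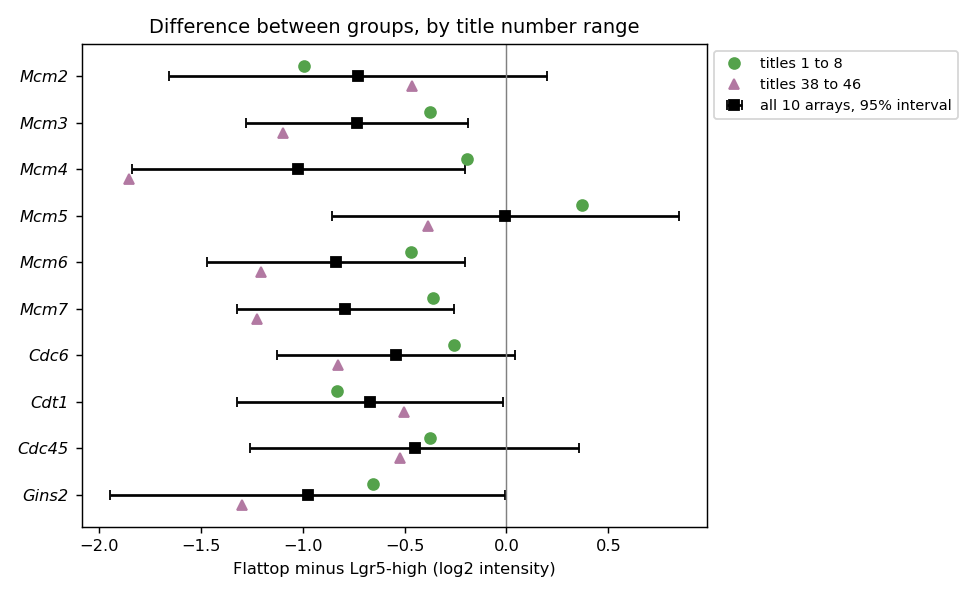
Difference of mean log2 intensity, Flattop minus Lgr5-high (horizontal axis), for each of the 10 genes. Black squares and bars give the estimate over all 10 arrays and its 95% interval, green circles the estimate within titles 1 to 8 and purple triangles that within titles 38 to 46. All squares lie at or left of 0, and Mcm4 has the widest gap between circle (-0.19) and triangle (-1.85).

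How closely the members varied together was described by Pearson correlation across the 10 arrays after each group's mean was subtracted. The difference between groups therefore plays no part. Differences between title ranges were not subtracted, so the split among the Flattop arrays described above remains in these correlations. How much of each correlation comes from that split was not tested. Over the 45 pairs the median r was 0.28, from -0.31 for Mcm5 with Gins2 to 0.91 for Mcm2 with Cdt1, and 5 pairs were below 0. Mcm6 and Mcm7 followed at 0.81. The arrays share their normalisation, and their RNA quality is unknown here, so these values are a description of 10 libraries. By the same measure the 6 other genes most like the mean of the 10 members were Kif13a (0.97), Oard1 (0.96), Rfc1 (0.96), Rab2a (0.96), Hopx (0.95) and Snrpd1 (0.95). Of all genes, 12.9% had an r above 0.5 with that mean, so a high value is common in these arrays. Of the 6, Rfc1 is the large subunit of the loader that places the sliding clamp on DNA.

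The rest of the replication machinery was read from 10 related lists, 88 genes in all, of which 0 passed over all genes in limma. For each list the median over all arrays is followed by those of the lower and the higher title range. The origin recognition complex, which marks the origins, had a median of -0.17 over 6 genes (0.02 and -0.18), with 4 below 0. Orc6 had its smallest p (-0.63, adjusted p = 0.628, and -0.38 without Lgr5-high replicate 2). The other GINS subunits and firing factors had a median of -0.14 over 15 genes, with 13 below 0, but the median was 0.12 in the lower range (7 of 15 below 0), -0.49 in the higher, 0.0015 without Flattop replicate 3 and -0.45 without Flattop replicate 1. Wdhd1, the replisome protein also called And-1, was at -0.63 (SE 0.19, adjusted p = 0.252) and the fork protection protein Tipin at -1.07 (SE 0.52, adjusted p = 0.549), or -0.43 without Flattop replicate 3. Gins3, a partner of Gins2 in the same complex, was higher in Flattop by 0.58 (SE 0.25, adjusted p = 0.484), at a mean of 4.95 against 4.36, and by 0.35 without Flattop replicate 2. Its mean over all arrays lay at percentile 39.95 of all genes, just under the cut of the filter on dim genes at percentile 40.

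Among genes of the replication fork, all 12 of the replicative polymerases and primase had negative differences over all arrays, with a median of -0.50. The median was -0.16 in the lower range (10 of 12 below 0), -0.92 in the higher (11 of 12) and -0.29 without Flattop replicate 3. Prim1, the catalytic subunit of primase, which makes the first RNA primers, had the most negative difference of all 22180 genes. Its 4 Flattop arrays read 7.07, 7.73, 4.35 and 3.72, and its 6 Lgr5-high arrays lay between 7.95 and 8.92. The readings of Flattop replicates 3 and 4 were under the medians over all genes on those arrays (4.98 and 4.97). Whether they lay above background is unknown here. The groups did not overlap, and the difference of -2.51 (SE 0.70) had an adjusted p of 0.197, since the Flattop SD was 1.98. Arrays with titles 1 to 8 gave -0.94 (adjusted p = 0.564), and those with titles 38 to 46 gave -4.08, which passed (adjusted p = 0.0116). The interaction for Prim1 had an unadjusted p of 0.000131 and an adjusted p of 0.212. Pold3, a subunit of polymerase delta named after its value was seen, was the other gene of the related lists to pass within titles 38 to 46 (-2.01, adjusted p = 0.0367), and it was at 0.42 within titles 1 to 8.

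Pola1, the catalytic subunit of polymerase alpha, was at -0.86 (SE 0.26, adjusted p = 0.249) and Pole3, a histone-fold subunit of polymerase epsilon, at -0.99 (SE 0.36, adjusted p = 0.381), or -0.62 without Flattop replicate 4. The clamp and its loaders had a median of -0.29 over 7 genes (-0.14 and -0.38). Among them Atad5, which unloads the clamp, was at -0.83 (adjusted p = 0.481) and Pcna, the clamp itself, at -0.32 (adjusted p = 0.638). Single-strand binding and Okazaki fragment genes had a median of -0.14 over 8 genes (0.07 and -0.35), and Lig1, the ligase that joins the fragments, was at -0.62 (adjusted p = 0.566), or -0.33 without Flattop replicate 4. Genes of nucleotide supply had a median of -0.48 over 7 genes (-0.15 and -0.81), with Dut at -0.70 (adjusted p = 0.427) and thymidylate synthase (Tyms) at -0.56 (adjusted p = 0.454), or -0.36 without Flattop replicate 3.

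Among 6 genes of replication-coupled chromatin the median was -0.43 (-0.08 and -0.78). Hells, a chromatin remodeller required for DNA methylation, read 8.04, 7.63, 5.18 and 4.94 in Flattop and 7.46 to 8.92 in Lgr5-high arrays. As for Mcm4, replicates 1 and 2 lay inside the Lgr5-high range, and replicates 3 and 4 were more than 2 log2 units under it. The difference was -1.65 (SE 0.61, adjusted p = 0.382), and that of the maintenance methyltransferase Dnmt1 was -0.42 (adjusted p = 0.510). Licensing inhibitors and turnover factors had a median of -0.23 over 8 genes (0.06 and -0.41, and 0.0059 without Flattop replicate 3), with Ddb1, part of the ligase that degrades Cdt1, higher by 0.71 (adjusted p = 0.492). The other MCM family genes had a median of -0.26 over 4 genes (-0.08 and -0.70), with Mcm8 at -0.70 (adjusted p = 0.526).

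**Figure D3:**
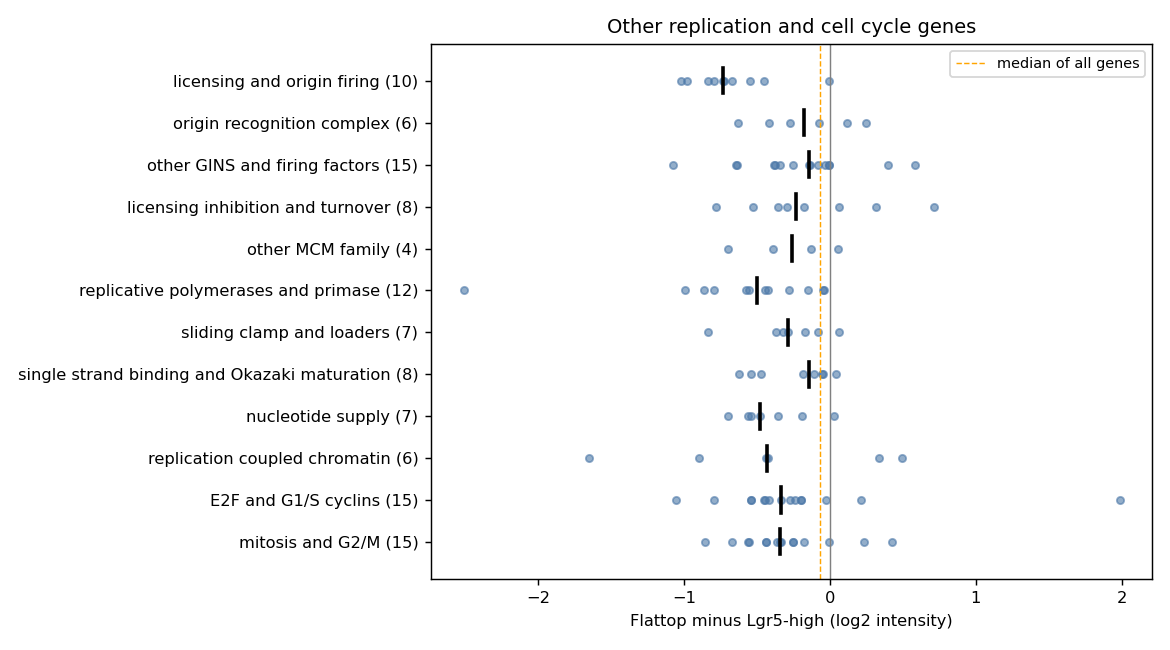
Difference of mean log2 intensity, Flattop minus Lgr5-high (horizontal axis), for every measured gene of the licensing genes, 10 related lists and the mitosis list (rows, with the number of genes). Points are genes, black bars list medians, and the dashed line the median of all genes (-0.06). The licensing median is -0.73, that of polymerases and primase -0.50, and the isolated points are Prim1 (-2.51), Hells (-1.65) and Rb1 (1.99).

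The regulators of the G1 to S transition had a median of -0.33 over 15 genes (-0.11 and -0.60), 13 of them below 0. E2f1, a transcriptional activator of licensing genes, read 5.67, 5.61, 5.78 and 5.50 in Flattop, all under the lowest Lgr5-high array at 5.85. Its difference of -0.45 (SE 0.18) had an adjusted p of 0.431. In the lower title range the E2f1 difference was -0.62, and in the higher it was -0.28. Rb1, the pocket protein that holds E2F factors inactive, was higher. Its Flattop arrays read 8.67, 9.26, 8.74 and 8.10, and its Lgr5-high arrays lay between 5.54 and 7.49, so the groups did not overlap. The Rb1 difference of 1.99 (SE 0.42) had an adjusted p of 0.0629, and it passed with dim genes left out (adjusted p = 0.0415). Rb1 had 2 probe sets, and these values are from the one with the higher mean. With the mean of both, the difference was smaller, at 1.31, and passed (adjusted p = 0.0448). The Rb1 difference was 2.71 in the lower title range and 1.26 in the higher.

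Mitosis and G2/M genes had a median of -0.34 over 15 genes, and 0 passed in limma. Those with the smallest p were Bub1 (-0.55, adjusted p = 0.427) and Cenpf (-0.85, adjusted p = 0.497). The mitosis median was 0.02 in the lower title range and -0.80 in the higher, where the licensing medians were -0.37 and -0.96. The difference between both lists was not tested.

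Of the marker lists, those of enterocytes, secretory cells and lymphocytes had genes that passed, and the others had none. The 13 crypt base stem cell genes, of which 0 passed, had a median of -0.79, or -0.21 and -1.14 in the lower and higher title range, and the smallest p-values were those of Gkn3 (-1.17, adjusted p = 0.114) and Rgmb (-1.06, adjusted p = 0.124). Rgmb passed with the title range as a block (adjusted p = 0.0179) and after a second quantile normalisation (adjusted p = 0.0281). Lgr5 itself was at -1.10 (SE 0.51, adjusted p = 0.533) and Cfap126, the Flattop gene, at 0.43 (SE 0.31, adjusted p = 0.678). With 1 array left out Lgr5 ran from -1.52 to -0.45 (the latter without Flattop replicate 3) and Cfap126 from 0.17 (without Flattop replicate 3) to 0.68 (without Flattop replicate 1). Neither gene therefore separated the labelled groups in this test. Of 11 lymphocyte markers, 10 rose in Flattop, among them Ccl5 (6.99) and Cd3g (6.43), beside 0.902% of all genes. Their list mean was 8.31, 8.81, 10.54 and 9.93 in Flattop replicates 1 to 4 and 4.41 to 4.85 in Lgr5-high arrays. Flattop replicates 3 and 4, lowest in licensing genes, were highest in lymphocyte genes. The order did not hold for all arrays. Lgr5-high replicate 6 had a lower licensing mean (6.92) than Flattop replicates 1 and 2 (7.13 and 6.997), with a lymphocyte mean of 4.66.

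Of 10 enterocyte markers 6 rose, among them Apoa1 (2.70) and Alpi (4.69), which did not pass within titles 38 to 46 alone (adjusted p = 0.0664 and 0.0795). Their list mean was 9.30 to 10.71 in Flattop against 6.77 to 7.71 in Lgr5-high arrays. Of 10 secretory markers 10 rose, with Itln1 at 3.04, and their list mean was 11.62 to 12.09 against 8.24 to 9.35. The 14 general epithelial markers had a median of 0.08 and 0 passed, with Vil1 having the smallest p (0.62, adjusted p = 0.0782). Their list mean was 9.88, 9.66, 9.03 and 9.52 in Flattop and 9.24 to 9.59 in Lgr5-high arrays. The 9 mesenchymal and endothelial markers had list means of 4.45 to 4.63 and 4.33 to 4.81, with 0 passing and Vim at 0.96 (adjusted p = 0.238). The 12 dissociation response genes had a median of 0.30, with 0 passing and Junb at 1.12 (adjusted p = 0.252), and their median was -0.40 in the lower title range and 0.97 in the higher. The part of any of these lists in the licensing differences was not tested.

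**Figure D4:**
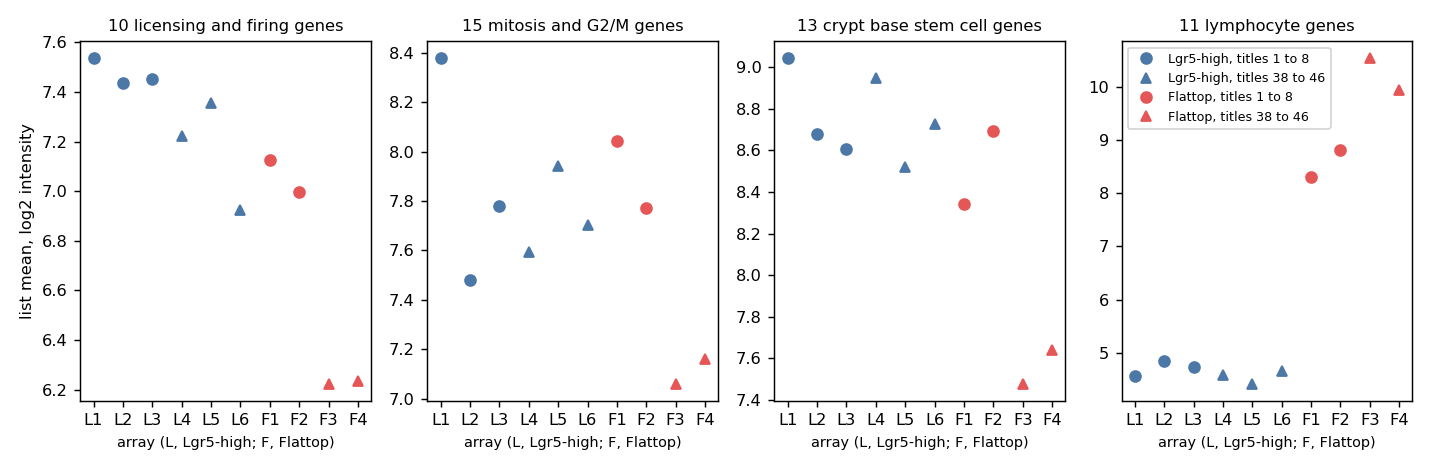
Mean log2 intensity (vertical axes) of the 10 licensing and firing genes, 15 mitosis genes, 13 stem cell genes and 11 lymphocyte genes on each array (horizontal axes; L1 to L6, Lgr5-high replicates; F1 to F4, Flattop replicates). Circles are titles 1 to 8 and triangles titles 38 to 46. F3 and F4 are the lowest arrays in the first 3 panels (6.22 and 6.24 for licensing genes) and the highest in the lymphocyte panel (10.54 and 9.93).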

How the data were processed

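Log2 intensities per probe set were deposited by the authors. Per the submitters' processing notes they come from RMA (background correction, normalisation between arrays and 1 value per probe set) in oligo 1.38.0. How the steps were ordered is unknown here, and scanner files were not used here. The platform annotation paired 23521 of 41345 probe sets with a single symbol and 1814 with more than 1, and 16010 stayed unnamed. For each of 22180 genes the probe set with the highest mean over the 10 arrays was used. Values ran from 2.01 to 14.1, array medians lay between 4.56 and 4.77, and no pair of arrays was identical. Without detection calls, whether a low value lay above background is unknown here. Separately, the number of arrays limits the precision.

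Groups were compared with limma 3.58.1 (lmFit, eBayes) in R 4.3.3, two-sided, Flattop minus Lgr5-high, with Benjamini-Hochberg adjustment over all genes at 0.05. Members, lists and tests were chosen with earlier results of these data known. Named were the members, the genes of smallest p in each list (up to 4 in related lists, 3 in marker lists), Lgr5, Cfap126 and the 6 genes most like the members, predicted and small RNA genes left out. On simulated data for this comparison with 22180 genes, the share of altered genes recovered was 45.5% for a change of 1 log2 unit, 86.3% for 2 and 96.7% for 4, and 7.32% of calls were false. The altered genes were drawn at random from all genes. Their noise was independent and normal, with the same SD in both groups and no title range effect. These shares are therefore not the chance of detecting a change in a member. Alternatives covered normalisation, centring, a filter on dim genes, the variance prior, array weights, blocks for replicate number and title range, each range alone, the choice of probe set, the threshold and each array left out. Plots were drawn with matplotlib 3.10.9.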

Additional observations from a re-analysis of the deposited data

Results flagged for a closer look

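No member had a single array far from the rest of its group by Dixon's test at 95%, over 20 tests of the 10 genes in both groups. Among the other named genes, Lgr5-high replicate 5 was high for Gins3 (5.098, where the other 5 arrays lay between 4.06 and 4.31), and Flattop replicate 1 was high for Mcm8 (5.853, where the other 3 lay between 4.57 and 4.61). Lgr5-high replicate 2 was low for Tyms (6.60, where the others lay between 7.30 and 7.56) and for Itln1 (7.987, where the others lay between 8.91 and 9.05). With those of the members, 88 tests were run, and chance flags about 1 in 20 such tests. Kif13a, Oard1, Rab2a, Hopx and Snrpd1 were not among the genes tested, nor among those compared for order between title ranges below.

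For Cfap126 every Flattop array lay under every Lgr5-high array within titles 1 to 8 (-0.44) and over all of them within titles 38 to 46 (1.29). The difference between the ranges was 1.73 (interaction, unadjusted p = 0.000452, adjusted p = 0.244). Flattop replicates 1 and 2 read 4.67 and 4.93 for Cfap126, where the medians over all genes on these arrays were 4.87 and 4.88. For Rfc1 the order was the reverse, 0.18 and -0.92, with a difference between the ranges of -1.10 (unadjusted p = 0.00876, adjusted p = 0.523).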

How the results depend on the processing

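Over 22 alternatives, no member passed an adjusted p of 0.05, or 0.1 where that was the threshold. The members' interaction was run under 18 of these and did not pass in any. The lowest adjusted p values were 0.0727 for Mcm7 and 0.0756 for Mcm3, both after a second quantile normalisation. Of 220 member differences, 211 were negative, and the exceptions were all of Mcm5 (0.0135 with arrays centred on their median, 0.37 within titles 1 to 8, and -0.30 to 0.18 when 1 array was left out). The members' median of -0.73 was -0.37 within titles 1 to 8, and -0.84 to -0.54 when 1 array was left out. For replicate numbers 1 to 4, the r of same-numbered deviations from the group mean was 0.28, -0.21, -0.003 and 0.027. Among Lgr5-high replicates 1 to 4, the same-numbered array was the closest for Flattop replicate 1 only. Title range was not subtracted, and number 3 joins arrays of different ranges. These values therefore cannot decide whether replicate numbers pair the samples. With the replicate block, 57 genes passed and the members' median was -0.78. The 203 genes passing in all were 311 at an adjusted p of 0.1 (292 higher, 19 lower), 178 after a second quantile normalisation (162 higher, 16 lower), 77 within titles 1 to 8, 85 within titles 38 to 46, and 123 to 215 when 1 array was left out, 123 without Flattop replicate 2 and 132 without Lgr5-high replicate 4. Of the 88 related genes 0 passed, and 1 did after a second quantile normalisation (Wdhd1), 1 with dim genes left out, with the mean of probe sets or at 0.1 (Rb1 each time), and 2 within titles 38 to 46. Signs turned within titles 1 to 8 for Cenpf (0.032), Cfap126 (-0.44), Oard1 (0.27), Rfc1 (0.18), Rab2a (0.34) and Pold3 (0.42), and for Hopx after a second quantile normalisation (-0.086) and within titles 38 to 46 (-0.20). With 1 array left out, Hopx ranged from -0.12 to 0.32, Oard1 from -0.65 to 0.14 and Rab2a from -0.37 to 0.11. Within titles 1 to 8 the medians of 4 related lists were above 0 (origin recognition, firing factors, turnover and Okazaki maturation). The cause of these shifts was not tested.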
